A study of Arabidopsis thaliana with 18 samples.

Results

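The genes described here are the 61 rows of the count table, of 14229 in all, whose locus code starts with ATCG, the prefix that Arabidopsis gene codes give to the chloroplast genome. They were followed in all 18 libraries of whole Arabidopsis thaliana Col-0 seedlings, which fell into 6 groups of 3. Seedlings in liquid MS medium were given 1% DMSO as the solvent control, 5 µM coronatine, a bacterial toxin that mimics jasmonoyl-isoleucine, or 5 µM DPAM-1, a compound known here only by that code name. Treatment began 4 days after germination. In 3 of the groups 100 mM NaCl followed 16 h later and seedlings were collected after another 2 h. No solvent is stated for coronatine or DPAM-1, and no mock addition or time of harvest for groups without salt, so solvent and compound, or addition and salt, cannot be told apart. Nothing says that the 3 libraries of a group came from separate cultures, so each p-value measures the spread between libraries, which may be technical.

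The chloroplast genome encodes part of the photosynthetic machinery (subunits of both photosystems, the cytochrome b6f complex, the ATP synthase, an NADH dehydrogenase-like complex and the large subunit of Rubisco) and part of its own expression machinery (ribosomal proteins, ribosomal and transfer RNAs, and the core of a bacterial-type RNA polymerase). The bacterial-type polymerase works with sigma factors and associated proteins made in the nucleus, and a second, phage-type polymerase is encoded in the nucleus altogether. Chloroplast transcripts mostly carry no stable poly(A) tail, and short tails there mark RNA for decay. Lasy-Seq starts reverse transcription from oligo-dT, so a read from a chloroplast gene needs such a tail or an A-rich stretch, and a change in RNA amount cannot be told apart from a change in priming. In whole seedlings, fewer green cells and less RNA per cell cannot be told apart either.

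The reference annotation pairs 6 of the 61 codes with a protein, and the other 55 are given by code alone. ATCG00670 encodes the plastid subunit of the ClpP protease, which degrades proteins in the stroma. ATCG00660, ATCG00750 and ATCG01310 encode the ribosomal proteins L20, S11 and L2, parts of the chloroplast ribosome. ATCG00420 encodes subunit J of the NADH dehydrogenase-like complex, which carries electrons around photosystem I. The annotation calls the protein of ATCG00530 CemA-like, and CemA is an envelope protein linked to proton extrusion. The annotation also lists a nuclear pseudogene copy of the gene behind ATCG00420, and reads of such copies, or of genes repeated within the chloroplast genome, cannot be assigned to 1 place with certainty.

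Library totals lay between 13638981 and 37279056 reads, of which 109224 to 400791 fell on the 61 rows. The lowest count of any of these genes in a library was 37 reads. Markers of green tissue (RBCS1A, CAB3) and of root (EXPA7, EXPA18, CASP2) were all present in the table. Levels are given as CPM, counts divided by the TMM-scaled library size in the usual CPM unit, and since read number also depends on where priming occurs they are compared between libraries and not between genes. Over all libraries the mean level of a gene ran from 4.17 to 2201 CPM with a median of 28.6 CPM. Of the 61 genes, 26 averaged under 20 CPM, 31 lay from 20 to 500 CPM and 4 exceeded 500 CPM.

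The share of all reads that fell on the chloroplast rows ranged from 0.585% to 1.48% and was highest in coronatine seedlings without salt. DMSO libraries had 1.14%, 1.04% and 1.21%, and coronatine libraries had 1.27%, 1.33% and 1.48%. DPAM-1 libraries had 0.888%, 0.792% and 0.940%. These 3 sets do not overlap. Under NaCl the DMSO libraries had 1.00%, 1.06% and 0.585%, the coronatine libraries 1.04%, 1.096% and 1.02%, and the DPAM-1 libraries 1.01%, 1.37% and 0.736%. The third DMSO with NaCl library stood below all others, and replicates 2 and 3 of DPAM-1 with NaCl stood far apart from each other. Counts and medians of the comparisons that hold these 3 libraries are given with and without them. A share's 95% Wilson interval was at most 0.00615 points wide on either side, for counting error only, since the reads carry no molecular identifiers.

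**Figure D1:**
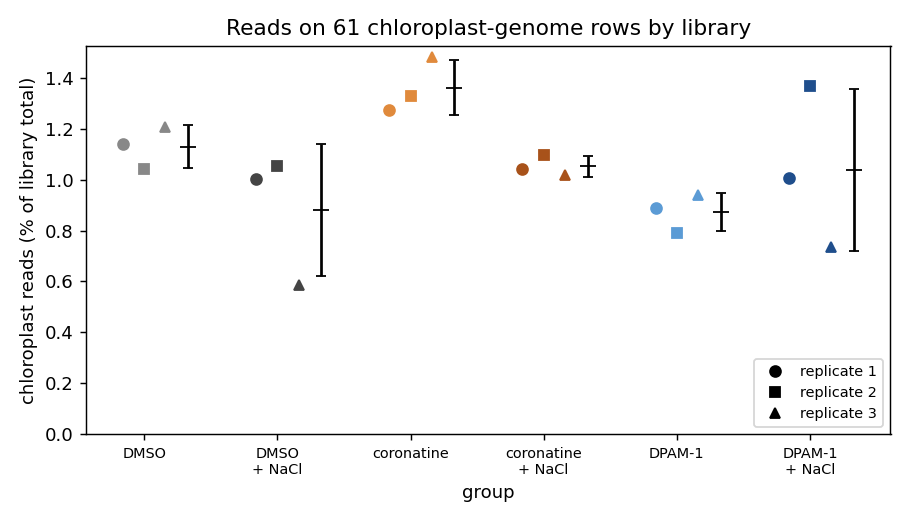
Reads on the 61 chloroplast-genome rows as a percentage of each library's total (vertical axis), by group (horizontal axis). Marker shapes are the replicate numbers, and the black dash with its bar is the group mean with the SD. Without NaCl the coronatine libraries lie above 1.27% and the DPAM-1 libraries below 0.940%, and the NaCl groups of DMSO and DPAM-1 spread most.

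Group means were 1.13% ± 0.0829 (SD, n = 3) in DMSO, 1.36% ± 0.107 (SD, n = 3) in coronatine and 0.873% ± 0.0753 (SD, n = 3) in DPAM-1. With NaCl they were 0.881% ± 0.258 (SD, n = 3), 1.05% ± 0.0403 (SD, n = 3) and 1.04% ± 0.317 (SD, n = 3). Each of the 3 compound pairs without NaCl, and NaCl in coronatine, gave an exact two-sided permutation p of 0.1, the smallest that 3 libraries against 3 allow. The other 5 pairs gave exact p-values from 0.2 to 0.8. Over both NaCl levels, with labels permuted within each level, coronatine exceeded DMSO by 0.201 points (exact p = 0.015, 0.06 adjusted over 4 such tests), and it was higher in mean at both levels. DPAM-1 lay 0.251 points below coronatine (-0.251, exact p = 0.045, adjusted 0.09), and -0.0503 points from DMSO (exact p = 0.725, adjusted 0.725). NaCl over the 3 compounds shifted the share by -0.131 points (exact p = 0.203, adjusted 0.271). None of the 4 passed after adjustment. Without the 3 NaCl libraries that stand apart, coronatine exceeded DMSO by 0.127 points and DPAM-1 differed from coronatine by -0.266 points. These libraries were picked by their share after it was seen, and 1 library was left in DPAM-1 with NaCl. For both reasons no p-value is given.

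The 61 genes moved largely together from library to library. The first principal component of their log2 CPM held 75.3% of the variance over the 18 libraries. Each gene's log2 CPM was set against the mean of the other 60 over these libraries, which share their depth and scaling. That correlation had a median of 0.864 and a range from 0.481 to 0.995, and 44 of the 61 genes exceeded 0.8. The lowest values belonged to ATCG00300 (0.481) and ATCG00480 (0.539), picked out after the values were seen. ATCG00300 stayed between 75.5 and 138 CPM in all 18 libraries and was called in no comparison.

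**Figure D2:**
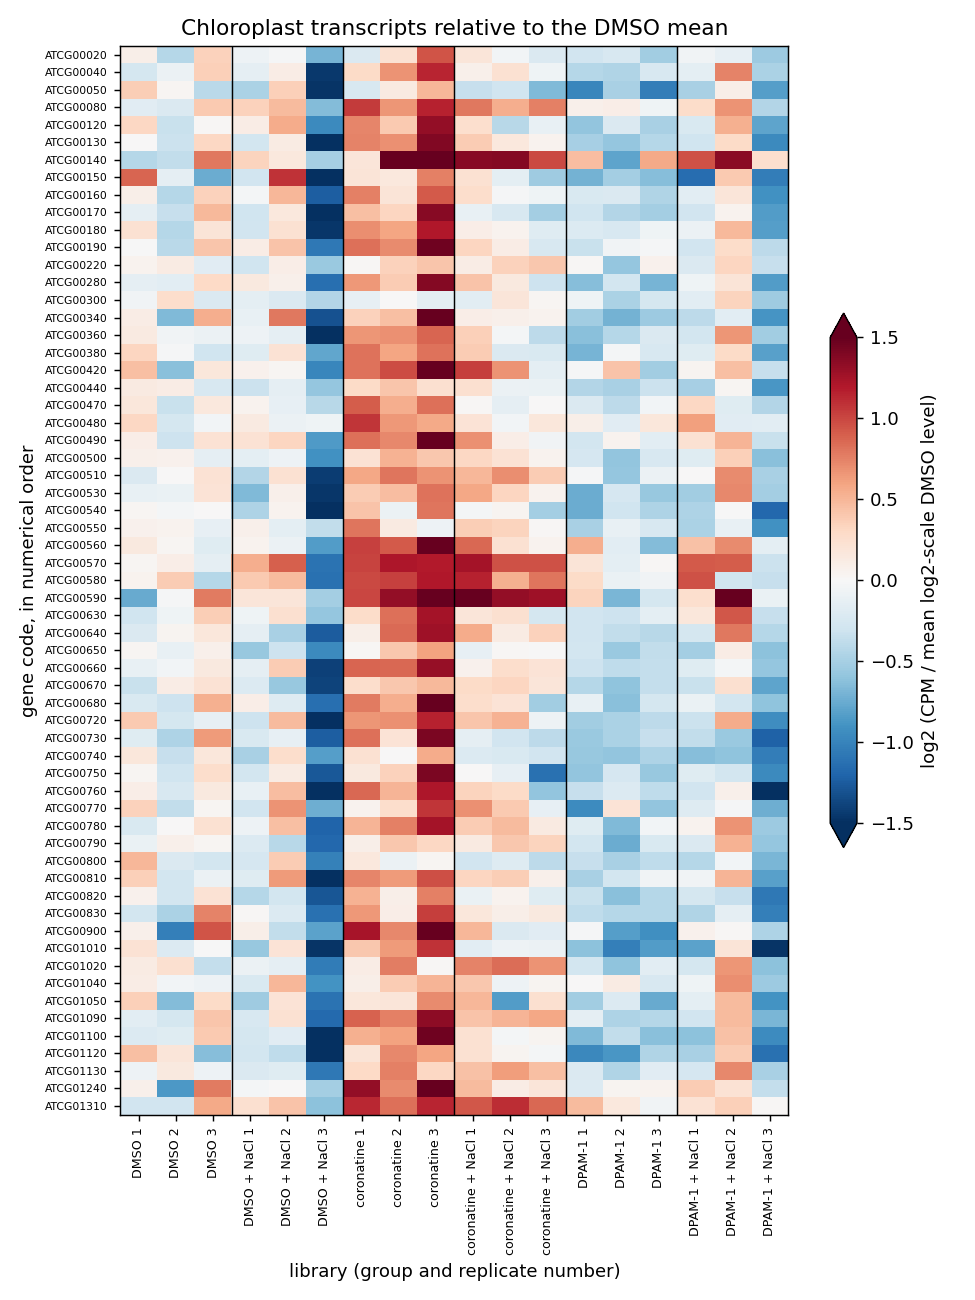
Log2 ratio of each chloroplast gene's CPM to its DMSO mean, with the 61 gene codes in numerical order down the side and the 18 libraries by group across. Most rows share the colour of their column: coronatine libraries without NaCl are high, the third DMSO with NaCl library is low, and rows such as ATCG00300 differ little.

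Coronatine against DMSO without NaCl asked what the jasmonate mimic does to chloroplast transcripts, and a large part of them rose. With edgeR, by its quasi-likelihood test and p-values adjusted over all 14229 genes (Benjamini-Hochberg), 28 of the 61 were called higher at an adjusted p under 0.05 and 0 lower. Of all genes 17.4% were called higher. The median log2 fold change of the 61 was 0.74, that of all genes -0.01, and 59 of the 61 lay above 0. In 33 of the 61 every coronatine library exceeded every DMSO library, against 19.2% of all genes. Of the 61, 11 were called higher with a log2 fold change of at least 1, as were 6.24% of all genes. Among genes called higher, that is 11 of 28 in the chloroplast set and 888 of 2477 over all genes.

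**Figure D3:**
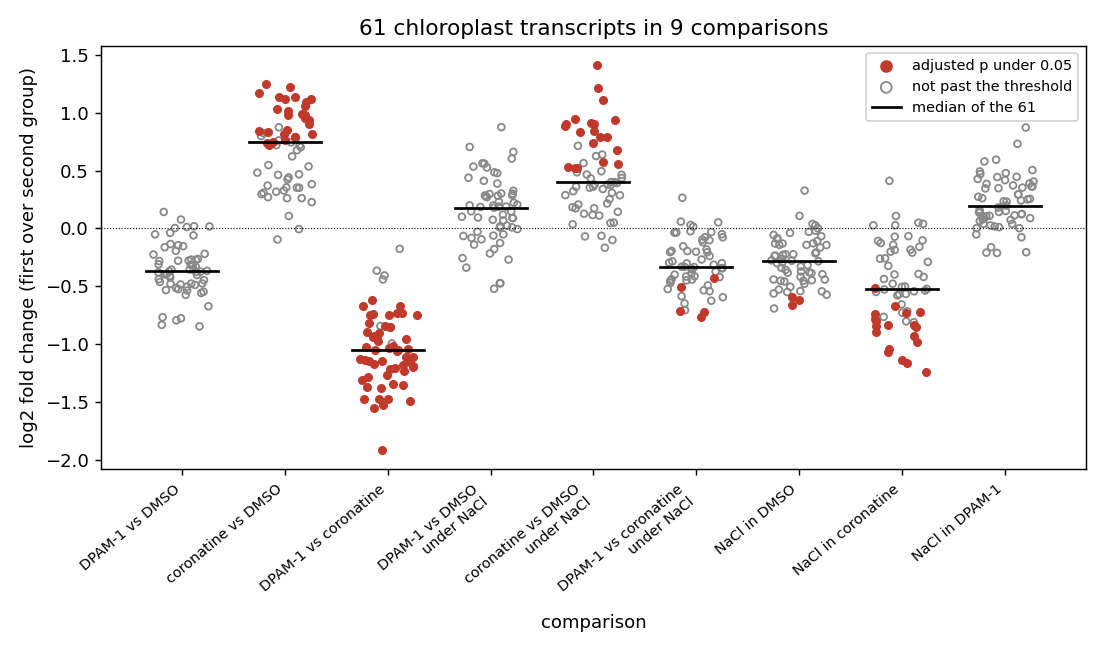
Log2 fold change (vertical axis) of the 61 chloroplast genes in the 9 comparisons between 2 groups (horizontal axis). Each point is a gene, filled where the adjusted p is under 0.05, and black lines are medians. The genes sit above 0 for coronatine against DMSO and below 0 for DPAM-1 against coronatine and for NaCl in coronatine.

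The largest called rises were in genes of few reads. ATCG00140 stood at 5.17, 5.36 and 12.04 CPM in DMSO and at 7.86, 19.9 and 26.7 CPM in coronatine. The 2 groups overlap, and its log2 fold change was 1.25 ± 0.38 (SE), adjusted p = 0.0138. ATCG00590 stood at 2.48, 4.14 and 7.23 CPM in DMSO and at 8.42, 10.5 and 13.7 CPM in coronatine. Here every coronatine library was higher, with a log2 fold change of 1.22 ± 0.35, adjusted p = 0.00768. ATCG00560 rose from 6.69, 6.18 and 5.33 CPM to 12.3, 11.4 and 17.5 CPM, again without overlap, at 1.17 ± 0.28, adjusted p = 0.00171. Of these 3, the call of ATCG00140 ended without DMSO replicate 1 or 2 or coronatine replicate 3 (adjusted p up to 0.0942), and that of ATCG00590 without DMSO replicate 1 (0.0550).

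Among the 6 genes paired with a protein, 3 were in the called set, 2 ribosomal genes and that of the NADH dehydrogenase-like complex. ATCG01310 (ribosomal protein L2) stood at 14.8, 14.8 and 26.6 CPM in DMSO and at 39.3, 31.9 and 39.8 CPM in coronatine. Its groups did not overlap and its log2 fold change was 0.98 ± 0.21, adjusted p = 7.9e-04. ATCG00660 (ribosomal protein L20) went from 6.24, 6.57 and 7.48 CPM to 12.4, 12.2 and 16.7 CPM, about 2.02-fold, adjusted p = 0.00272. ATCG00420 (NADH dehydrogenase subunit J) went from 6.14, 2.92 and 5.07 CPM to 7.93, 8.88 and 13.6 CPM, 2.13-fold, adjusted p = 0.0100. The other 3 did not pass. ATCG00670 (ClpP) was at 0.37 ± 0.22, ATCG00530 (CemA-like) at 0.55 ± 0.29 and ATCG00750 (ribosomal protein S11) at 0.70 ± 0.32. Their 95% intervals were -0.08 to 0.82, -0.06 to 1.16 and 0.03 to 1.37.

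By level, 14 of the 26 genes under 20 CPM rose, 13 of the 31 from 20 to 500 CPM, and 1 of the 4 above 500 CPM. The median log2 fold changes of these classes were 0.81, 0.74 and 0.39. The class bounds were set after the levels were seen. The 1 of the 4 that rose was ATCG00470, the gene of most reads over all libraries among those in the chloroplast genome. It stood at 2321, 1638 and 2304 CPM in DMSO and at 3864, 3000 and 3644 CPM in coronatine. Its groups do not overlap, with a log2 fold change of 0.75 ± 0.16, adjusted p = 5.2e-04. ATCG00480, the next code present in the table, had a like value of 0.76 ± 0.17, adjusted p = 0.00110. ATCG00790, ATCG01130 and ATCG01020 were at 0.27 ± 0.21, 0.47 ± 0.22 and 0.32 ± 0.26 and did not pass.

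The count depended on the tool, on scaling and on single libraries. DESeq2 called 19 genes higher and 0 lower, beside 2575 of all 14229 genes called higher. With library totals in place of TMM factors 17 genes were called, all higher (10.6% of all genes), and the median of all genes moved to -0.24 while that of the 61 was 0.52. The count was 13 without DMSO replicate 2 (2246 of all genes called higher) and 15 without coronatine replicate 3 (2585 of all genes). Same-numbered DMSO and coronatine libraries deviate together, though the labels do not say that numbers pair libraries. A fit of these 2 groups alone, with the replicate number as a block, was added after seeing the data. It called 52 genes higher (19.2% of all genes) and 0 lower.

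Relative to the chloroplast rows themselves few genes differed. With the chloroplast total as library size the median of all genes moved to -0.51, and 2 chloroplast genes were called higher for coronatine against DMSO beside 5.27% of all genes. They were ATCG00140 at 0.75 ± 0.28 (adjusted p = 0.0265) and ATCG00590 at 0.73 ± 0.30 (adjusted p = 0.0437). The reads of the 2 mitochondrial rows in the table, taken as a share of the library, were 0.00174%, 0.00289% and 0.00436% in DMSO and 0.00496%, 0.00459% and 0.00741% in coronatine, all higher in coronatine. Of the 5 tissue markers 4 were called in the same comparison. The root hair expansins EXPA7 and EXPA18 were higher at 0.96 ± 0.17 (adjusted p = 5.9e-05) and 0.97 ± 0.14 (adjusted p = 4.9e-06), and CASP2, of the root endodermis, was lower at -0.71 ± 0.17 (adjusted p = 0.00178). CAB3, a chlorophyll-binding protein of green tissue, was lower at -0.33 ± 0.07 (adjusted p = 5.6e-04), while RBCS1A, the small subunit of Rubisco, did not pass at 0.15. The part of tissue make-up in the chloroplast result was not tested.

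DPAM-1 against DMSO without NaCl gave lower values in most chloroplast genes but no call. Of the 61, 0 passed the edgeR test (1.02% of all genes did), 8 had an unadjusted p under 0.05 (14.2% of all genes) and DESeq2 called 0. The median log2 fold change was -0.37, with 55 genes below 0, and in 20 genes every DPAM-1 library lay below every DMSO library, against 8.19% of all genes. ATCG00670 (ClpP) stood at 310, 422 and 456 CPM in DMSO and at 290, 257 and 305 CPM in DPAM-1, the latter all lower, at -0.48 ± 0.22 (95% interval -0.93 to -0.03, adjusted p = 0.315). ATCG00470 was at -0.23 ± 0.16 (95% interval -0.55 to 0.10), and ATCG01310 (ribosomal protein L2) at 0.14 ± 0.22. With only these 2 groups fitted, 6 genes were called lower, beside 0.316% of all genes. The count at an unadjusted p under 0.05 was 3 without DMSO replicate 1, beside 1956 of all 14229 genes. The count was 14 without DMSO replicate 2 (2514 of all genes) and 4 without DPAM-1 replicate 2 (1802 of all genes). Without the 3 NaCl libraries that stand apart, which enter here only through the shared spread, it was 27 and 1 gene was called.

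Set against coronatine at the same dose without NaCl, DPAM-1 had lower chloroplast transcripts almost throughout. The edgeR test called 55 of the 61 lower and 0 higher, where 17.5% of all genes were called lower. All 61 lay below 0, the median was -1.05, and in 56 every DPAM-1 library was below every coronatine library, against 22.1% of all genes. By every scaling of whole libraries tried the genes called here were lower, 44 of the 61 with library totals (10.8% of all genes), where the median of all genes moved to 0.19. This comparison shares the coronatine libraries with the one above.

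ATCG00900 stood at 14.4, 10.1 and 22.7 CPM in coronatine and at 6.07, 3.45 and 3.24 CPM in DPAM-1. It was lower in every DPAM-1 library, 3.77-fold in the fit, a log2 difference of -1.92 ± 0.37 (adjusted p = 2.1e-04). ATCG01010 was at 20.3, 23.9 and 32.5 CPM against 10.02, 7.54 and 8.57 CPM, without overlap, at -1.55 ± 0.32 (adjusted p = 4.0e-04). ATCG00590 was at 8.42, 10.5 and 13.7 CPM against 5.29, 2.61 and 3.50 CPM, at -1.53 ± 0.35 (adjusted p = 0.00144). All 6 genes paired with a protein were called lower, from -0.84 ± 0.21 in ATCG01310 to -1.37 ± 0.26 in ATCG00660, both of the ribosome. All 4 genes above 500 CPM were called as well, from -0.67 ± 0.21 in ATCG00790 to -0.97 ± 0.16 in ATCG00470. The 6 that did not pass held all 5 genes called in no comparison: ATCG00150, ATCG00300, ATCG00800, ATCG01040 and ATCG01050.

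With the chloroplast total as library size, 7 genes were lower in DPAM-1 than in coronatine and 1 was higher. Under that scaling 3.84% of all genes were called lower and 77.9% higher, with a median of all genes of 0.84, and the adjusted p-values below belong to that setting. ATCG00900 kept the largest difference at -1.06 ± 0.30 (adjusted p = 0.00121), ATCG01010 was at -0.71 ± 0.28 (0.0151) and ATCG00590 at -0.69 ± 0.30 (0.0303). The 1 that was higher relative to the rest was ATCG00300, at 0.66 ± 0.26 (adjusted p = 0.0161), whose own level had differed little. The tissue markers differed here too, with 4 of the 5 called, EXPA7 at -0.57 ± 0.16, EXPA18 at -1.18 ± 0.14, CASP2 at 1.32 ± 0.17 and CAB3 at 0.40 ± 0.07, and their part in the result was not tested.

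Under NaCl the called chloroplast genes were all higher in coronatine than in DMSO. Such calls were somewhat more frequent among the 61 than among all genes, and with library totals no more frequent. Of the 61, 20 were called higher and 0 lower, where 23.8% of all genes were called higher, and the median was 0.40 with 57 genes above 0. In 22 genes the groups did not overlap, against 29.6% of all genes. Of the 28 genes called without NaCl 35.7% were called again, which is 50.0% of the 20. The like rate over all genes was not taken, so neither percentage is read as repetition. The difference between the NaCl levels was itself tested as an interaction, given below.

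ATCG00590 led this comparison too. It stood at 4.78, 4.77 and 2.95 CPM in DMSO with NaCl and at 12.6, 10.5 and 10.1 CPM in coronatine with NaCl, without overlap, 2.66-fold or 1.41 ± 0.34 on the log2 scale (adjusted p = 0.00139). ATCG00140 stood at 8.75, 7.71 and 4.92 CPM against 17.9, 17.95 and 13.8 CPM, at 1.21 ± 0.38 (adjusted p = 0.0105). ATCG01020 stood at 714, 690 and 365 CPM against 1263, 1348 and 1203 CPM, at 1.11 ± 0.26 (adjusted p = 0.00114). In these 3 genes every coronatine library was the higher. The call of ATCG00140 ended without the third DMSO with NaCl library (adjusted p = 0.0514) and with library totals (0.0573). ATCG00790 and ATCG01130 were called at 0.84 ± 0.21 and 0.95 ± 0.23, and ATCG00470, which had risen without NaCl, was at 0.11 ± 0.16 (95% interval -0.21 to 0.43).

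Of the genes paired with a protein, 4 rose under NaCl. ATCG00670 (ClpP) stood at 338, 264 and 149 CPM in DMSO with NaCl and at 477, 488 and 442 CPM in coronatine with NaCl, at 0.90 ± 0.22 (adjusted p = 0.00144). ATCG01310 was at 0.88 ± 0.21, ATCG00530 at 0.91 ± 0.30 and ATCG00420 at 0.83 ± 0.32. ATCG00660 and ATCG00750 were at 0.39 ± 0.26 and 0.05 ± 0.33. Without replicate 3 of DMSO with NaCl, the library of lowest share, 7 genes were called higher, beside 3159 of all 14229 genes. The median of the 61 was then 0.18. The count was 11 without replicate 1 of coronatine with NaCl, 31 without replicate 2 of DMSO with NaCl (median 0.73), and 12 without the 3 libraries that stand apart (21.5% of all genes), with a median of 0.18. Without replicate 1 of coronatine with NaCl 2976 of all genes were called higher, and without replicate 2 of DMSO with NaCl 2967. DESeq2 called 14 of the 61 higher, beside 3474 of all genes. With library totals 6 were called (11.2% of all genes). The median of the 61 was then 0.07 with 40 above 0, and that of all genes was -0.34. With the chloroplast total as library size 2 were higher and 3 lower, beside 5.45% and 59% of all genes. The 2 were ATCG00140 and ATCG00590, and the 3 were ATCG00120, ATCG00150 and ATCG00800. Of the 5 tissue markers 3 were called here, EXPA7 at 0.45 ± 0.15, EXPA18 at 0.80 ± 0.14 and CAB3 at -0.33 ± 0.07, and their part in the result was not tested.

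For DPAM-1 against DMSO under NaCl no chloroplast gene passed (0 called by edgeR and by DESeq2, 6 at an unadjusted p under 0.05). Of all genes 0.576% passed and 10% had an unadjusted p under 0.05. The median was 0.18 with all libraries and -0.15 without the 3 that stand apart, so no direction is given. Between the compounds under NaCl, 5 genes were lower in DPAM-1 than in coronatine and 0 higher, where 21.4% of all genes were called lower. These were ATCG01310, ATCG01020, ATCG00550, ATCG00740 and ATCG00440, all of which were lower in DPAM-1 without NaCl as well.

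ATCG01310 (ribosomal protein L2) stood at 34.4, 38.7 and 32.7 CPM in coronatine with NaCl and at 20.9, 23.0 and 18.3 CPM in DPAM-1 with NaCl, without overlap, at -0.77 ± 0.21 (adjusted p = 0.00568). ATCG00550 stood at 15.7, 15.4 and 12.3 CPM against 8.78, 11.3 and 6.53 CPM, at -0.71 ± 0.20 (adjusted p = 0.00623). ATCG01020 stood at 1263, 1348 and 1203 CPM against 629, 1192 and 493 CPM, at -0.72 ± 0.26 (adjusted p = 0.0277). The median of the 61 was -0.33. With library totals 0 genes were called and 34 of the 61 lay below 0, while the median of all genes was 0.31, and DESeq2 called 2. The count was 20 and 1 without replicates 2 and 3 of DPAM-1 with NaCl, 2 and 3 without replicates 1 and 2 of coronatine with NaCl, and 10 without the 3 that stand apart. Of all 14229 genes 2728 and 2651 were called lower without replicates 2 and 3 of DPAM-1 with NaCl. Without replicates 1 and 2 of coronatine with NaCl these were 2629 and 2781. The median of the 61 was -0.57 and -0.10 without replicates 2 and 3 of DPAM-1 with NaCl. Without the 3 that stand apart it was -0.32. Of the 5 tissue markers 4 were called, EXPA7 at -0.64 ± 0.16 and EXPA18 at -0.75 ± 0.14 lower in DPAM-1, CASP2 at 0.59 ± 0.16 and CAB3 at 0.28 ± 0.07 higher, and their part in the result was not tested.

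With NaCl in DMSO seedlings 3 of the 61 were called lower and 0 higher, where 7.88% of all genes were called lower. The median of the 61 was -0.28. ATCG00650 stood at 51.8, 46.6 and 53.5 CPM without NaCl and at 34.1, 40.6 and 26.1 CPM with it, without overlap, at -0.59 ± 0.16 (adjusted p = 0.0134). ATCG00670 (ClpP) went from 310, 422 and 456 CPM to 338, 264 and 149 CPM, with overlap, at -0.66 ± 0.22 (adjusted p = 0.0367). ATCG00820 went from 127, 100 and 142 CPM to 90.2, 100 and 49.9 CPM, at -0.62 ± 0.21 (adjusted p = 0.0424). All 3 calls ended without the third NaCl library, which leaves 0 called and ATCG00670 at -0.39. The count was 9 without the second, with a median of -0.53, and 1 higher and 1 lower without the 3 that stand apart, with a median of -0.05. Of all 14229 genes 687 were called lower without the third NaCl library and 790 without the second. With all libraries 1 of the 5 tissue markers was called, EXPA7, higher with NaCl at 1.13 ± 0.16 (adjusted p = 2.5e-05). Its part was not tested.

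NaCl in coronatine seedlings lowered 19 genes and raised 0, where 12.1% of all genes were called lower. The median was -0.53 with 55 genes below 0, and in 31 genes every NaCl library lay below every library without it, against 18.8% of all genes. ATCG00900 went from 14.4, 10.1 and 22.7 CPM to 8.66, 5.27 and 5.44 CPM, without overlap, at -1.24 ± 0.35 (adjusted p = 0.0105). ATCG00730 went from 144, 93.5 and 216 CPM to 73.9, 66.5 and 61.9 CPM, at -1.16 ± 0.28 (adjusted p = 0.00366). ATCG00680 went from 7.44, 6.34 and 16.1 CPM to 5.21, 5.01 and 3.03 CPM, at -1.14 ± 0.32 (adjusted p = 0.0111). In these 3 genes the third coronatine library was the highest, and without it the calls of ATCG00900 and ATCG00680 ended (adjusted p = 0.0779 and 0.132).

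Of the genes paired with a protein, the ribosomal ATCG00660 and ATCG00750 fell under NaCl in coronatine, at -0.85 ± 0.25 (adjusted p = 0.0148) and -1.04 ± 0.33 (adjusted p = 0.0212). The third ribosomal gene, ATCG01310, was at -0.07 ± 0.21 (95% interval -0.50 to 0.36). ATCG00470 fell 1.74-fold, from 3864, 3000 and 3644 CPM to 2089, 1879 and 2062 CPM (adjusted p = 5.3e-04), and ATCG00480 1.59-fold (adjusted p = 0.00574). The other 3 genes above 500 CPM were at 0.03 ± 0.21 (ATCG00790), 0.04 ± 0.22 (ATCG01130) and 0.41 ± 0.26 (ATCG01020). Relative to the chloroplast total 3 genes were lower (0.548% of all genes), ATCG00900 at -0.99 ± 0.29, ATCG00730 at -0.89 ± 0.26 and ATCG00170 at -0.80 ± 0.26. The count was 3 without the third coronatine library, with a median of -0.34, 10 and 6 without replicates 2 and 3 of coronatine with NaCl, and 33 without the 3 libraries that stand apart, which are in neither group and enter only through the shared spread. DESeq2 called 11. Of the 5 tissue markers 3 were called higher with NaCl in coronatine, EXPA7 at 0.62 ± 0.16, CASP2 at 0.54 ± 0.17 and CAB3 at 0.20 ± 0.07, and their part was not tested.

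With NaCl in DPAM-1 seedlings 0 of the 61 were called by edgeR and by DESeq2 (1 at an unadjusted p under 0.05), where 12.2% of all genes passed in either direction and 23.9% did so unadjusted. The median was 0.20 with 55 genes above 0. Without the second DPAM-1 with NaCl library it was -0.07 with 22 above 0 and 39 below, and without the third 0.44, so no direction is given. Without the 3 libraries that stand apart it was 0.15, with 1 gene called higher. ATCG00590, for example, stood at 5.29, 2.61 and 3.50 CPM without NaCl and at 5.02, 11.8 and 3.93 CPM with it (0.87, adjusted p = 0.140), the second NaCl library alone standing high.

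**Figure D4:**
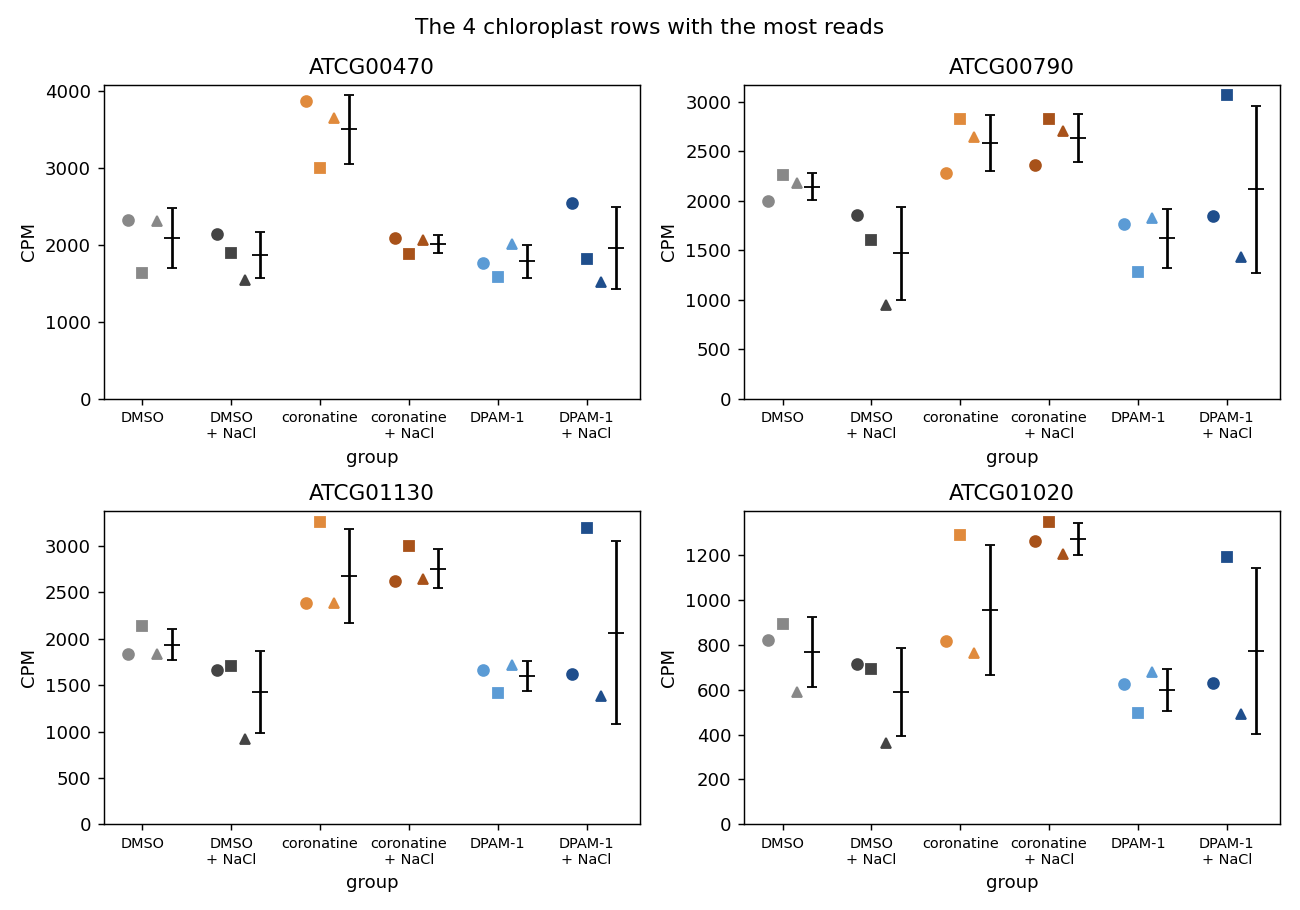
CPM of the 4 chloroplast genes above 500 CPM (vertical axes, 1 panel each) by group (horizontal axis), with 1 marker per library and the group mean with its SD in black. ATCG00470 is highest in coronatine without NaCl (3000 to 3864 CPM), and ATCG01020 lies between 1203 and 1348 CPM in coronatine with NaCl.

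The interactions asked whether a compound changes the response to NaCl. For DPAM-1 against DMSO 0 of the 61 genes passed by edgeR and by DESeq2, with 10 at an unadjusted p under 0.05 (0.499% and 5.69% of all genes). The median was 0.46 with all libraries and 0.22, with 5 unadjusted, without the 3 that stand apart. It was 0.73 (31 unadjusted, beside 735 of all 14229 genes) without replicate 2 of DMSO with NaCl. Without replicate 3 of that group it was 0.21 (3 unadjusted, beside 768 of all genes). It was 0.26 (2 unadjusted, beside 661 of all genes) without replicate 2 of DPAM-1 with NaCl. Without replicate 3 of that group it was 0.65 (25 unadjusted, beside 746 of all genes). For coronatine against DMSO 0 passed by both tools, with 6 unadjusted (3.84% and 17.8% of all genes). The median was -0.26 with all libraries, but 0.02 with 33 genes above 0 without replicate 2 of DMSO with NaCl, so no direction is given. It was -0.17 without DMSO replicate 2 and -0.08 without coronatine replicate 3. Without replicate 3 of DMSO with NaCl it was -0.59 with 2 called lower, and without the 3 libraries that stand apart -0.59 with 4 called lower (1.88% of all genes). The loss of calls under NaCl for coronatine is thus not shown to be a difference. Between coronatine and DPAM-1, 1 gene passed and was lower, where 1.76% of all genes were called lower, and 26 of the 61 had an unadjusted p under 0.05 against 17.8% of all genes. The latter count was 11 without replicate 2 of DPAM-1 with NaCl, 12 without coronatine replicate 3, 15 without replicate 3 of coronatine with NaCl and 32 without the 3 libraries that stand apart. Of all 14229 genes, 2250, 2135 and 2299 had such a p when 1 of these libraries was left out, in the same order. ATCG00470 responded to NaCl by -0.80 ± 0.16 in coronatine and by 0.14 ± 0.16 in DPAM-1, a difference of -0.94 ± 0.22 (adjusted p = 0.0154). Its levels in DPAM-1 were 1768, 1576 and 2011 CPM without NaCl and 2549, 1810 and 1521 CPM with it, and the call ended without the first of the latter (-0.70, adjusted p = 0.0561) and with the chloroplast total as library size (-0.49, adjusted p = 0.463).

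The 4 most read genes together held between 60.7% and 71.8% of the chloroplast reads of a library. ATCG00470 held 23.7% ± 3.69 (SD, n = 3) in coronatine and 16.3% ± 1.40 (SD, n = 3) in coronatine with NaCl. ATCG01020 held 6.46% ± 1.94 (SD, n = 3) and 10.3% ± 0.273 (SD, n = 3) in the same groups, and ATCG01130 18.1% ± 3.35 (SD, n = 3) and 22.3% ± 1.03 (SD, n = 3). The groups did not overlap for ATCG00470 and ATCG01020 and overlapped for ATCG01130. In the fit relative to the chloroplast total none of the 4 was called for NaCl in coronatine (ATCG01020 at 0.67 ± 0.26, adjusted p = 0.0884, ATCG00470 at -0.54 ± 0.25, adjusted p = 0.198). In DMSO, DPAM-1 and their NaCl groups ATCG01020 held between 7.10% and 7.60% on average. These shares add up to a fixed whole, so a rise in one is bound to lower others.

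Over the 12 comparisons 56 of the 61 genes were called at least once. The like count over all genes was not taken. Coronatine against DMSO under NaCl alone called 6808 of the 14229, so the 56 are not read as particular to the chloroplast set. ATCG00470, ATCG00560 and ATCG01310 were called in 4 comparisons each, which is the most for any gene.

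Many nuclear genes that serve chloroplast transcription and RNA turnover fell in coronatine seedlings. The list holds 26 genes for sigma factors, the phage-type polymerases, proteins associated with the bacterial-type polymerase and plastid RNases. Of these, 25 were in the table, and SIG5, a stress- and light-responsive sigma factor, was not analysed here. For coronatine against DMSO 15 of the 25 fell and 1 rose, PTAC16 at 0.28 ± 0.08, where 17.4% of all genes were called lower, and the median was -0.36. With library totals 21 fell and 0 rose, where 40.5% of all genes were called lower and the median of all genes was -0.24. PTAC10 and PTAC6, components of the polymerase complex, were at -0.55 ± 0.09 (adjusted p = 2.3e-05) and -0.43 ± 0.07 (adjusted p = 4.5e-05). PTAC6 stood at 77.2, 72.3 and 71.8 CPM in DMSO and at 57.6, 52.8 and 54.1 CPM in coronatine, without overlap.

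Under NaCl 19 of the 25 fell with coronatine and 1 rose, SIG1 at 0.30 ± 0.11 (24.0% of all genes were called lower), with a median of -0.66. PTAC6 stood at 72.7, 78.8 and 73.8 CPM in DMSO with NaCl and at 37.7, 41.1 and 38.2 CPM in coronatine with NaCl, at -0.95 ± 0.07 (adjusted p = 1.4e-10), and PTAC10 was at -1.01 ± 0.09 (adjusted p = 1.4e-09). RPOTp, the phage-type polymerase of chloroplasts and named for that role, was at -0.50 ± 0.17 (adjusted p = 0.0238) without NaCl and at -1.12 ± 0.17 (adjusted p = 8.9e-06) under it. NaCl itself lowered 13 of the 25 in coronatine and raised 0, with a median of -0.35 and PTAC6 at -0.49 ± 0.07 (12.1% of all genes were called lower). The count was 8 without coronatine replicate 3 or without replicate 1 of coronatine with NaCl. In DMSO and in DPAM-1 0 of the 25 were called for NaCl by edgeR and by DESeq2 (1 and 2 at an unadjusted p under 0.05), where 17.7% and 12.2% of all genes passed and 30.1% and 23.9% did so unadjusted.

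For DPAM-1 against DMSO edgeR called 0 of the 25 at either NaCl level (8 and 4 at an unadjusted p under 0.05, 0 and 1 by DESeq2), with a median of -0.12 at both. Of all genes 1.02% and 0.576% passed, and 14.2% and 10% had an unadjusted p under 0.05. Against coronatine, DPAM-1 had 8 of them higher and 1 lower without NaCl and 19 higher and 1 lower under it (17.4% and 20.9% of all genes were called higher), led without NaCl by TRXz, a plastid thioredoxin of the polymerase complex, at 0.56 ± 0.10 (adjusted p = 8.2e-05) and FSD3, an iron superoxide dismutase, at 0.44 ± 0.10 (adjusted p = 0.00113). Without NaCl the 8 became 15 with library totals (35.6% of all genes) and 5 without DPAM-1 replicate 1 or coronatine replicate 2. The interaction of NaCl with coronatine was called lower for PTAC6 at -0.52 ± 0.10 (adjusted p = 0.00405), PTAC10 at -0.46 ± 0.12 (0.0354) and SIG2 at -0.46 ± 0.13 (0.0383), 3 of the 25 where 2.17% of all genes were called lower. It was called for 1 gene of the list without DMSO replicate 1 or 2, coronatine replicate 1 or 3, replicate 1 or 2 of DMSO with NaCl, or replicate 1 or 3 of coronatine with NaCl. Against the NaCl response in DPAM-1, that in coronatine was lower for PTAC6, PTAC10, MURE and PTAC12, by values from -0.49 to -0.70, 4 of the 25 where 1.76% of all genes were called lower. That count was 8 without coronatine replicate 2, 2 without replicate 1 of coronatine with NaCl and 0 without the 3 libraries that stand apart. SIG2, MURE, PTAC12, PTAC16 and SIG1 were named after their values were seen. No relation between the nuclear list and the chloroplast genes was tested.

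**Figure D5:**
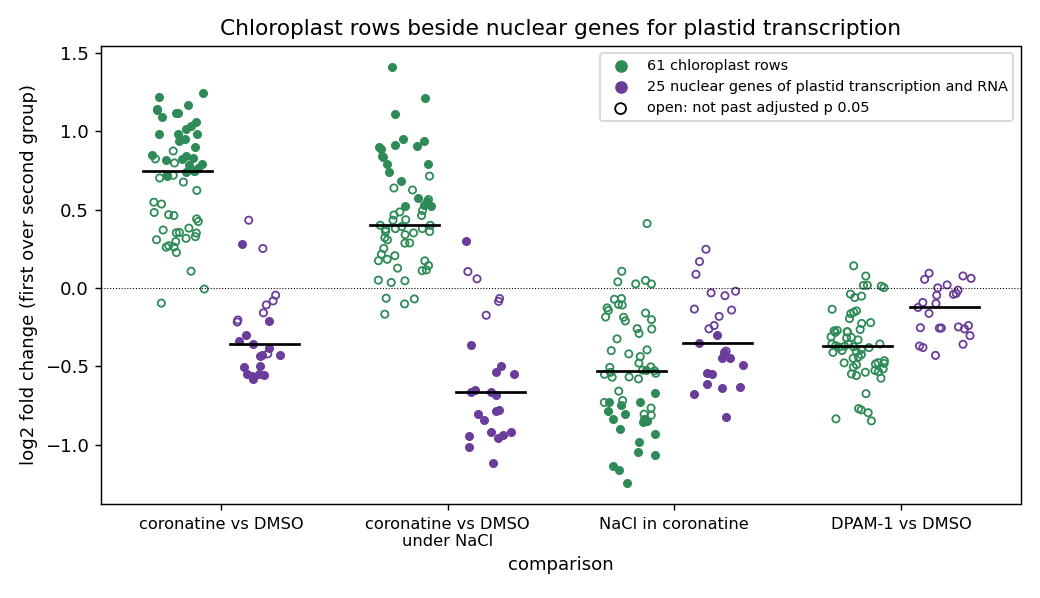
Log2 fold change (vertical axis) of the 61 chloroplast genes beside the 25 nuclear genes of plastid transcription and RNA turnover in 4 comparisons (horizontal axis), filled where the adjusted p is under 0.05, with black lines for medians. For coronatine against DMSO the chloroplast genes have a median of 0.74 and the nuclear genes one of -0.36.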

How the data were processed

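Lasy-Seq libraries were made from RNA of whole seedlings, per the labels' protocols. Raw read counts for each gene were deposited by the authors. Their other table, a signal deposited after scaling, was found to hold the same counts divided by 1 factor for each library and was used no further. Per the submitters' processing notes, bcl2fastq, Trimmomatic, HISAT2, featureCounts and DESeq2 were used with the build TAIR10. Their versions, roles and strand setting are not given in the sources used here. Each row has at least 30 reads in every library, a minimum read off the values, so chloroplast genes with fewer reads in any library are outside every statement.

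Counts were fitted in R 4.3.3 with edgeR 4.0.16 (TMM factors, expression filter that removed 0 genes, quasi-likelihood test, 1 mean per group over all 18 libraries, biological coefficient of variation 10.4%). Calls were made two-sided at 0.05 after Benjamini-Hochberg adjustment over the 14229 genes of each comparison. Standard errors come from the fitted contrasts. DESeq2 1.42.0 (Wald test), RLE factors, library totals, scaling from nuclear rows only, the chloroplast total as library size, other filters, the replicate number as a block, fits of only the groups compared and leaving out each library were alternatives. Shares were compared by exact permutation over libraries with Python 3.11.15 and scipy 1.17.1. The test script was tested on simulated data.

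The members and lists were chosen with earlier results of these data known. Added as alternatives after seeing the data were leaving out the 3 NaCl libraries that stand apart in share, and DMSO with coronatine alone with the replicate block. Same-numbered DMSO and coronatine libraries deviated together over all genes (correlation 0.127 to 0.499), while the 14 other pairs of groups gave -0.155 to 0.0824. The labels do not say that numbers pair libraries.

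Named by rule were up to 3 called members of largest change in each direction of a comparison and up to 2 called nuclear genes by smallest p. Groups by role, promoter class and transcription unit, and fixed named genes such as the large subunit of Rubisco, were planned but not used, since the TAIR10.1 reference pairs only 6 codes with a protein. The 6 are named for that reason and the 4 of highest level for their level, seen in the data. No sequence or coordinate is given.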

Additional observations from a re-analysis of the deposited data

Results flagged for a closer look

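The NaCl response of ATCG00470, the chloroplast gene of most reads, differed between coronatine and DPAM-1 by the test of the difference itself. The difference in log2 fold change was -0.94 ± 0.22 (edgeR adjusted p = 0.0154), with a 95% interval of -1.39 to -0.48. The call ended without replicate 1 of DPAM-1 with NaCl (adjusted p = 0.0561) and with the chloroplast total as library size (-0.49, adjusted p = 0.463). In coronatine every library with NaCl lay below every library without it (3 of 3), and in DPAM-1 the groups overlapped. ATCG00470 was the 1 gene of the 61 called for this difference, a rate like the 1.76% of all genes called lower. At an unadjusted p under 0.05 there were 26 of the 61, against 17.8% of all genes. No Dixon test was made, since groups of 3 are too small.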

How the results depend on the processing

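RLE factors, scaling from nuclear rows only, no filter and a mean count of at least 100 moved no count of called chloroplast genes by over 1.5 times. With library totals the counts became 17 for coronatine against DMSO, 6 under NaCl, 0 for DPAM-1 against coronatine under NaCl and 2 for the NaCl response in coronatine minus that in DPAM-1. With the chloroplast total as library size they became 2, 8 for DPAM-1 against coronatine, 5 for coronatine against DMSO under NaCl (2 higher, 3 lower), 0 for DPAM-1 against coronatine under NaCl, 0 for NaCl in DMSO, 3 for NaCl in coronatine and 0 for the last difference. DESeq2 gave 2 for DPAM-1 against coronatine under NaCl, 1 for NaCl in DMSO, 11 for NaCl in coronatine and 2 for the last difference. With only the groups compared they were 6 for DPAM-1 against DMSO, 15 for DPAM-1 against coronatine under NaCl, 1 for NaCl in DMSO, 38 for NaCl in coronatine (37 lower, 1 higher) and 10 for the last difference. A log2 fold change of at least 1 left 11, 35, 3, 0, 0, 5 and 0 in the 7 comparisons with calls (coronatine against DMSO, DPAM-1 against coronatine, both again under NaCl, NaCl in DMSO, NaCl in coronatine, the last difference). In the first, 6.24% of all genes were called higher by this bound, and in the others all genes were not counted. Without the 3 NaCl libraries that stand apart the counts were 1 for DPAM-1 against DMSO, 44 for coronatine against DMSO, 12 and 10 for coronatine against DMSO and DPAM-1 against coronatine under NaCl, 33 for NaCl in coronatine, 1 for NaCl in DPAM-1, 4 for the coronatine interaction and 2 for the last difference. That left 1 library in DPAM-1 with NaCl, assumed to vary like the other groups. The replicate block gave 1 for the coronatine interaction and 3 for the last difference, and 52 for DMSO and coronatine alone with the block. The block assumes that numbers pair the libraries, which the labels do not say. It changed no other count by over 1.5 times. Calls over all 14229 genes, for the comparisons in the order given, were 7272, 9195, 8488 and 686 with library totals. With the chloroplast total as library size they were 5395, 11636, 9170, 4568, 1943, 998 and 126. DESeq2 gave 6128, 2710, 4043 and 813 over all genes, and only the groups compared 186, 6802, 1727, 3472 and 775. The causes were not tested.

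Leaving out 1 library gave 13 to 31 for coronatine against DMSO, 47 to 55 for DPAM-1 against coronatine, 7 to 31 and 1 to 20 for these under NaCl, 0 to 9 for NaCl in DMSO, 3 to 20 for NaCl in coronatine, 0 to 2 for the coronatine interaction, 0 to 3 for the last difference and 0 to 0 elsewhere. Of 313 alternatives for the named genes, 268 kept the side of the threshold, 45 lost the call and 0 turned the direction.

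For the share of reads, DPAM-1 minus DMSO under NaCl turned to -0.0221 points without the 3 libraries that stand apart. Over both NaCl levels DPAM-1 minus coronatine was -0.201 points without the gene of most reads (exact permutation p = 0.09) and stayed at -0.251 under the replicate block (p = 0.0938). Leaving out 1 library gave -0.301 to -0.216 points for DPAM-1 against DMSO, 0.172 to 0.275 for coronatine against DMSO and -0.531 to -0.428 for DPAM-1 against coronatine. Under NaCl these were -0.00922 to 0.306, 0.0228 to 0.258 and -0.180 to 0.135. NaCl gave -0.336 to -0.101 in DMSO, -0.353 to -0.250 in coronatine and -0.00143 to 0.314 in DPAM-1. Over strata the ranges were -0.186 to -0.0813 for NaCl, 0.127 to 0.245 for coronatine against DMSO, -0.133 to 0.0249 for DPAM-1 against DMSO and -0.334 to -0.176 for DPAM-1 against coronatine. Not run was the share outside the inverted repeat, since the codes were not placed on the genome. Depth limits the 26 genes under 20 CPM most, whose median standard error for coronatine against DMSO was 0.31, against 0.22 in the 4 above 500 CPM.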
